A study of Mus musculus with 3 samples.

Results

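The JAK kinases and STAT factors are described here across 4 lists of open chromatin peaks. The genes were Stat2, Stat3, Stat4, Stat5a, Stat5b, Stat6, Jak1, Jak2 and Jak3, which are 9 of the 21951 protein-coding genes annotated for the mouse genome build mm10. For each gene, the peaks that overlapped the gene body or the 20 kb on either side were taken from each list, and overlapping peaks were merged, which gave 60 regions. The series contains 50965 merged regions in all, of which 40767 lay within 20 kb of a protein-coding gene.

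The lists came from ATAC-seq, in which a transposase cuts accessible DNA. The cells were pre/pro-B cell lines made from mouse bone marrow by retroviral transduction of the leukemia oncogene BCR-ABL(p185). All lines carried this oncogene. They differed in Cdk6, since 2 lines came from mice homozygous for wildtype Cdk6 (WT) and 2 from mice homozygous for the kinase-inactive mutant K43M, with no treatment named. The labels give no age of the mice and do not say whether each line was a single clone, so each genotype was measured in 2 lines and p-values cover the spread between these lines only. The lists were WT replicate 2, K43M replicate 1, K43M replicate 2 and a WT list without a replicate number, placed in the WT group from its name and the design text, which says that a first WT line had been submitted earlier and was reanalysed; this list carries no sample label of its own here. They held 33038 (WT, unnumbered), 34248 (WT replicate 2), 39038 (K43M replicate 1) and 34752 (K43M replicate 2) peaks. The promoters of 8 of 11 B-lineage marker genes were open in all 4 lists, Pax5, Ebf1 and Cd79a among them. Of the markers of other cells, 1 of 6 T cell genes (Cd28), 0 of 6 myeloid, 0 of 5 erythroid and 0 of 4 other tissue genes were open in all lists. Rag1, Rag2 and Cd79b each missed a promoter peak in 1 list, and the myeloid gene Lyz2 had one in both WT lists only, with fold enrichments of 7.50 and 7.09; the part of these markers in the results was not tested.

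Cytokine receptors of this pathway have no kinase of their own and depend on JAK kinases bound to their inner part. Once a ligand brings the receptor chains together, the JAKs phosphorylate the receptor and then a STAT factor, and paired STATs enter the nucleus and bind DNA sites that read TTC and GAA around a short spacer. In B-cell precursors the interleukin-7 receptor signals through Jak1 and Jak3 to Stat5a and Stat5b, and BCR-ABL is known to activate Stat5 as well. Stat5a and Stat5b are a close pair of genes that sit head to head on chromosome 11, with 8.63 kb between their starts, and the end of the Stat5a record overlaps that of Stat3 by 72 bp. Their windows therefore share regions, and 5 of the 60 regions lay in more than 1 window.

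Sequence is shown for 3 promoters and for 3 regions outside promoters, on the strand of the gene and from the GRCm38 genome, which is mm10. The first lines are the promoters of Stat2, the most enriched of the group, of Stat3, which had the largest promoter difference between genotypes, and of Jak2. Capitals mark the GC box GGGCGG and the CCAAT box, searched on both strands, so that CCGCCC and ATTGG also count. The Stat2 stretch is chr10:128270372-128270572, the Stat3 stretch chr11:100939541-100939740 (minus strand, the bases just before its start) and the Jak2 stretch chr19:29251596-29251796.
Stat2 promoter: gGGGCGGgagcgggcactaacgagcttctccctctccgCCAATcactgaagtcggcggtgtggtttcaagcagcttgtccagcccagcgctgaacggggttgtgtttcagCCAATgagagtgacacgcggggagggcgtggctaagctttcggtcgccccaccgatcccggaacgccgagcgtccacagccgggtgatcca
Stat3 promoter: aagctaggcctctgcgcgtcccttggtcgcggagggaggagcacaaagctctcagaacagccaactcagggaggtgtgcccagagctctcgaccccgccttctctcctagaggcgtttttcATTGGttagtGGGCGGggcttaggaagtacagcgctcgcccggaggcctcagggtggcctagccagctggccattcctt
Jak2 promoter: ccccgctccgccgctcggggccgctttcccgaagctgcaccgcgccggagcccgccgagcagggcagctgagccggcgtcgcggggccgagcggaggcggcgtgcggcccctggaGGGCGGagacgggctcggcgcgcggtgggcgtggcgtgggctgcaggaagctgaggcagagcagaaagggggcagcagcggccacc

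The next lines are the regions open in both K43M lines and in neither WT line at Jak2 and Jak1, and a region upstream of Jak1 that holds the STAT motif TTCNNNGAA next to its summit, in capitals. They are chr19:29271235-29271435 in Jak2, chr4:101276869-101277069 upstream of Jak1 (minus strand) and chr4:101284042-101284242 further upstream of Jak1 (minus strand, at the exon of the gene model Gm12801). The line labelled Jak2 intron runs from an intron into a coding exon.
Jak2 intron, K43M lines: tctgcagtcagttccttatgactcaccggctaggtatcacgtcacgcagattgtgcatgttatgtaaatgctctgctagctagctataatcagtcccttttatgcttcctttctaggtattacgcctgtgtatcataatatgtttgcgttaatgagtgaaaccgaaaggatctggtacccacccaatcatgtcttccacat
Jak1 upstream, K43M lines: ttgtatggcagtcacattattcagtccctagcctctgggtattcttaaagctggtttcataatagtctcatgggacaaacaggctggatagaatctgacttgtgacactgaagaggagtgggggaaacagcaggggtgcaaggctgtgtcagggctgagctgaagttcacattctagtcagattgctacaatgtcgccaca
Jak1 upstream, STAT motif: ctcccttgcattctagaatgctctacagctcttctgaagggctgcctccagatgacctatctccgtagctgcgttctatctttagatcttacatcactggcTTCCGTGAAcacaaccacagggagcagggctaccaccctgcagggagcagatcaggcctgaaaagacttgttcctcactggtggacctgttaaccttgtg

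The Jak2 promoter stretch was 79.1% G and C with 29 CpG pairs, and the Stat2 promoter stretch 64.2% with 19. The Jak2 stretch from intron into coding exon was 42.8% G and C with 6 CpG pairs, and the upstream Jak1 stretch 47.3% with 1. Over the 100 bp on each side of the summit, the median was 65.9% G and C in the 8 promoters open in all lists and 50.7% in the regions outside promoters. A GC box was present in 6 of these 8 promoter windows, compared with 62.3% of the 10134 regions at protein-coding promoters with a peak in all lists, and a CCAAT box in 4 of 8, compared with 32.8%. With 8 windows, no difference from other promoters was tested.

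The STAT motif was found in 4 of the 60 regions, or 6.67%, against 6.81% of all 50867 merged regions on the assembled chromosomes. The matches read TTCCCAGAA beyond the end of Stat4, TTCACAGAA in the first intron of Jak1, and TTCTCAGAA and TTCCGTGAA upstream of Jak1. None of the 8 promoter windows held one, and none of the 60 windows held the ETS motif CCGGAAG, which was present in 5.48% of all regions. These matches are letters in a window of fixed size and show no binding.

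Promoters were open in nearly every line. A promoter was taken as 2000 bp before to 200 bp after any annotated transcript start, and 8 of the 9 genes had a promoter peak in all 4 lists, compared with 47.6% of all protein-coding genes. No gene of the group had a promoter peak in both lists of 1 genotype only, a pattern seen in 0.515% of protein-coding genes for WT and in 2.00% for K43M. Stat4, which carries interleukin-12 signals in lymphocytes, was the exception. Its promoter peak was enriched 4.74-fold in WT replicate 2 and 5.60-fold and 6.14-fold in the K43M lines, and none was called in the unnumbered WT list, whose nearest peak was 2405 bp away. The start nearest to the summit was that of a retained-intron transcript, with the summit at -38 bp, upstream of it. The summit also lay 345 bp after the start of a protein-coding transcript that begins inside the gene record. It was 21.4 kb after the most upstream start, where no peak was called. The fold enrichment is the read pileup at the peak summit over the background that MACS2 expected there in the same library, with 1 added to both.

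The most enriched promoter was that of Stat2, which acts in type I interferon signalling (chr10:128270559-128292849). Its values were 14.5 and 14.0 in the WT lists (unnumbered, then replicate 2, as in all pairs of values below) and 14.98 and 15.4 in K43M replicates 1 and 2. All 4 values lay close together, and the mean ranked at percentile 97.8 among the 10455 genes with a promoter peak in all lists. The Jak1 promoter (chr4:101152367-101265282, minus strand) followed, with 12.0 and 13.5 in WT and 12.0 and 10.9 in K43M lines. Jak1 serves most receptors of the pathway. Its promoter had the most negative difference, with a log2 value of -0.16 (SE 0.12) for K43M minus WT and overlapping groups.

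At Stat3, which transmits interleukin-6 type signals (chr11:100885098-100939540, minus strand), the promoter values were 9.98 and 11.4 in WT and 12.5 and 12.9 in K43M lines. Both K43M lines were above both WT lines, with a log2 difference of 0.25 (SE 0.13) that did not pass the test over all shared regions (limma, adjusted p = 0.478). The Stat3 summit lay at the first base of the gene.

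Stat5a and Stat5b, the STATs of the interleukin-7 receptor, had intermediate to low promoter values. The Stat5a promoter (chr11:100859351-100885169) gave 9.47 and 7.58 in WT and 10.0 and 7.64 in K43M lines. Its summit lay 47 bp after the start of another protein-coding transcript of the gene and 1041 bp after the most upstream one. The Stat5b promoter (chr11:100780731-100850724, minus strand) gave 5.81 and 7.73 in WT and 8.52 and 5.53 in K43M lines. In both genes the lines of 1 genotype differed more from each other than the genotype means did. These means were 8.52 ± 1.33 (SD, n = 2) in WT and 8.84 ± 1.70 in K43M lines for Stat5a, and 6.77 ± 1.36 and 7.02 ± 2.11 for Stat5b.

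Jak2, the kinase of the erythropoietin receptor (chr19:29251828-29313080), had promoter values of 8.31 and 8.39 in WT and 8.74 and 8.86 in K43M lines, which were apart by a log2 difference of 0.08 (SE 0.16). At Stat6, the STAT of interleukin-4 (chr10:127642986-127660957), they were 6.97 and 7.53 in WT and 7.13 and 7.09 in K43M lines. At Jak3, the kinase of the common gamma chain (chr8:71676296-71690575), they were 7.18 and 4.74 in WT and 6.54 and 6.52 in K43M lines. Jak3 ranked lowest of the 8 genes, at percentile 7.92.

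In the order of mean fold enrichment, Stat2 was above Jak1 with no overlap of the 4 values, and Jak2 was above Stat6 with no overlap. By pileup Stat6 was above Jak2 in every list. Stat6 had 63 and 66 reads in WT and 62 and 59 in K43M lines, and Jak2 57, 47, 56 and 52. The expected background was 7.46 to 8.18 reads at Stat6 and 4.72 to 5.98 at Jak2. The other neighbours in the order (Jak1 and Stat3, Stat3 and Stat5a, Stat5a and Jak2, Stat6 and Stat5b, Stat5b and Jak3) overlapped over the lines. Fold enrichment is scaled to each library's own background, and depth sets how well it is measured. The pileup at the Stat2 summit was 93 reads in the unnumbered WT list, with an exact Poisson 95% interval of 75.1 to 114, whereas that at Jak3 in WT replicate 2 was 19 reads, with an interval of 11.4 to 29.7. These intervals cover counting error only.

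**Figure D1:**
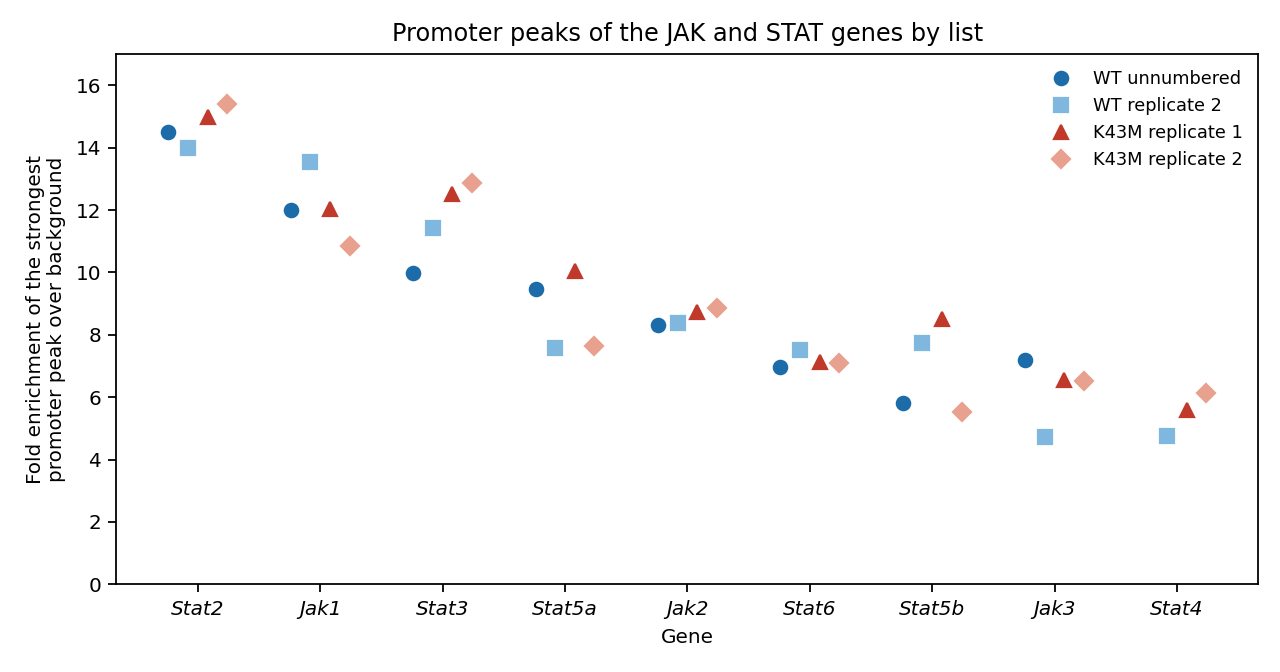
Fold enrichment over background of the strongest promoter peak (vertical axis, linear) for each gene, with 1 point per list; WT lists are blue and K43M lists red. Stat2 is highest at 14.0 to 15.4, and Stat4 has no point for the unnumbered WT list.

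Genes whose promoter values were nearest to those of a member over the 4 lists, by Euclidean distance of log2 fold enrichment among 10455 genes, were Gpat4 for Jak1 (distance 0.04), Atp2b1 for Jak2, Mtmr1 for Jak3, Paip2b for Stat2, Zfp119a for Stat3, Tmem18 for Stat5a, Gm13212 for Stat5b and Cdk5rap1 for Stat6 (0.06). For Stat5b the nearest gene was further away, at a distance of 0.12. With 4 points each, these are descriptions of likeness in level and pattern.

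Regions in the windows were held by all lists about as often as regions near other genes. Of the 60 regions, 27 (45.0%) had a peak in all 4 lists, close to the 44.1% of all regions within 20 kb of protein-coding genes. Of the others, 1 (1.67%) was open in both WT lists and no K43M list, against 3.93% of all such regions, and 3 (5%) in both K43M lists and no WT list, against 7.78%. The remaining 29 had another set of lists. By kind, 11 regions were promoters of a JAK or STAT gene, 10 were promoters of other protein-coding genes in the windows, 20 lay in a gene body and 19 in the flanks. The 21 promoter regions had a peak in all lists in 15 cases (71.4%), against 70.1% of regions at protein-coding promoters. The 39 regions in a gene body or flank did so in 12 cases (30.8%), against 29.7% of regions near protein-coding genes and away from their promoters.

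Regions in the gene body outside promoters were found in 5 genes, which were 54.4 to 120 kb long. Jak1 had 7 of them, Stat5b 5, Stat4 4, Jak2 3 and Stat3 1. Stat2, Stat5a, Stat6 and Jak3, which were 14.3 to 25.8 kb long, had none. Positions are given in kb from the most upstream start of a principal protein-coding transcript, negative values being upstream of it. Internal regions in intron 19 of Stat2 (13.7 kb) and intron 20 of Stat3 (45.9 kb) were counted as promoters. Each lay near the start of a retained-intron transcript only, 13678 and 45771 bp from the nearest protein-coding start. The Stat2 region had values of 4.63 in WT replicate 2 and 4.02 in K43M replicate 2. The Stat3 region had 5.62 in WT replicate 2 and 4.76 in K43M replicate 1.

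**Figure D2:**
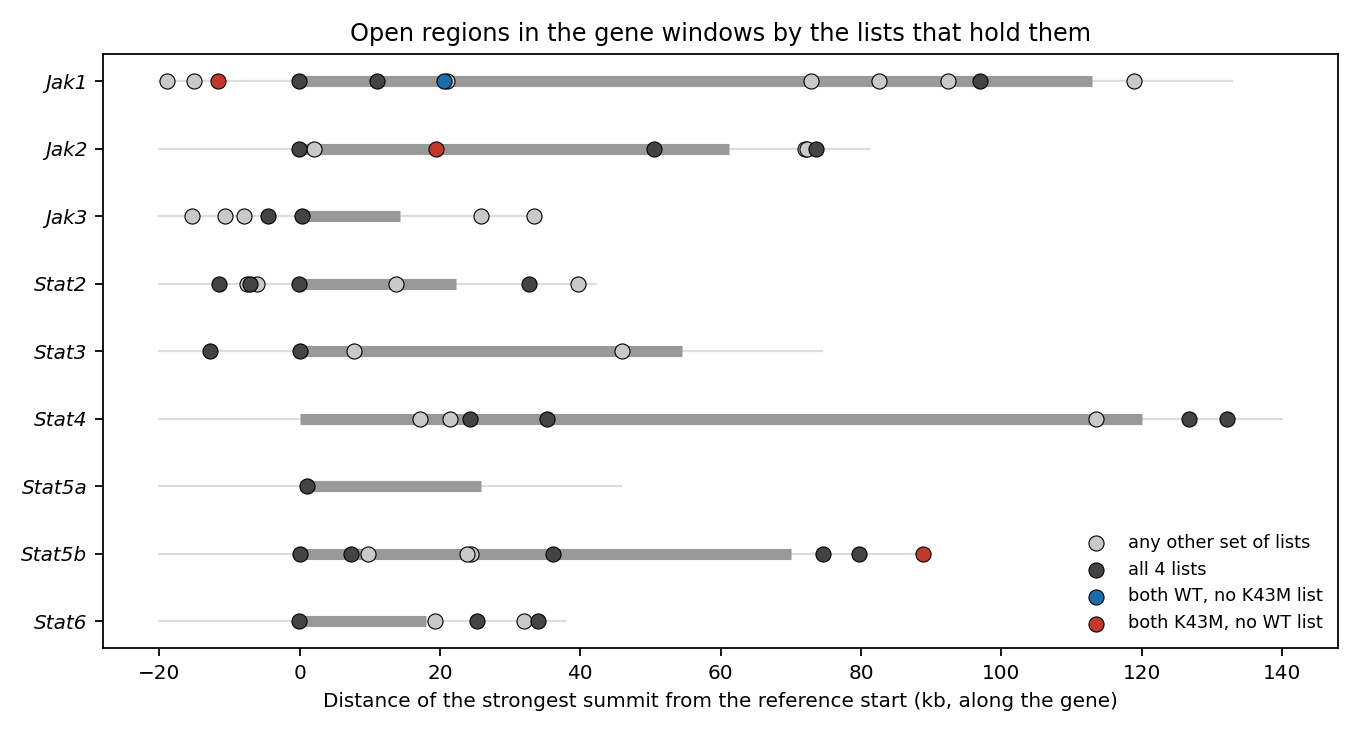
Position of each of the 60 regions (horizontal axis, kb from the reference start along the gene) in the windows of the 9 genes; thick bars are gene bodies, thin lines the 20 kb flanks, and each region is drawn once, in the row of the gene it was assigned to. Red points at Jak1, Jak2 and Stat5b are the 3 regions in both K43M lists and no WT list, and the blue point at Jak1 is the 1 region in both WT lists and no K43M list.

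The most enriched region of 1 genotype was inside Jak2. A region at 19.5 kb (chr19:29271148-29271558), which runs from intron 2 into a coding exon, reached 8.93-fold and 9.93-fold over background in K43M replicates 1 and 2, and neither WT list called it. The pileups were 24 (15.4 to 35.7) and 28 (18.6 to 40.5) reads, with exact Poisson 95% intervals, and the peaks ranked at percentiles 61.6 and 71.6 of their lists by q-value. The nearest peak of a WT list was 17.1 kb away. In the WT lists a peak at the genome-wide background was called from 7 (unnumbered) or 6 (replicate 2) reads upwards. The lists hold no value below the calling threshold, so the WT level at this place was not measured and no test was made.

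A further region of this kind lay upstream of Jak1, at -11.7 kb (chr4:101276562-101277355). Its K43M values were 8.77 and 6.49, with pileups of 29 and 19 reads. The nearest peak of WT replicate 2 was 2933 bp away and that of the unnumbered WT list 11031 bp away. The remaining one was in the window of Stat5b but at the promoter of another gene, the potassium channel gene Kcnh4, with its summit in the coding sequence of Hcrt, which encodes the neuropeptide hypocretin (chr11:100761571-100762016). Its K43M values were 4.23 and 5.07, and WT peaks lay 1372 and 1421 bp away. These 3 regions were also called in both K43M lists when only peaks with −log10 q of at least 5, or equal numbers of peaks per list, were used.

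The region open in both WT lists and no K43M list was weak. It lay in the first intron of Jak1 at 20.5 kb (chr4:101244663-101245079), with fold enrichments of 3.63 and 4.66 and pileups of 8 and 10 reads. The first of these peaks ranked at percentile 0.236 of its list. Peaks of the K43M lists ended 99 and 38 bp away, in the adjacent region at 20.9 kb (WT replicate 2, 4.66; K43M lines, 4.68 and 5.75), so that both genotypes had open chromatin within this stretch. With peaks of −log10 q of at least 5 only, the WT region was no longer called.

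**Figure D3:**
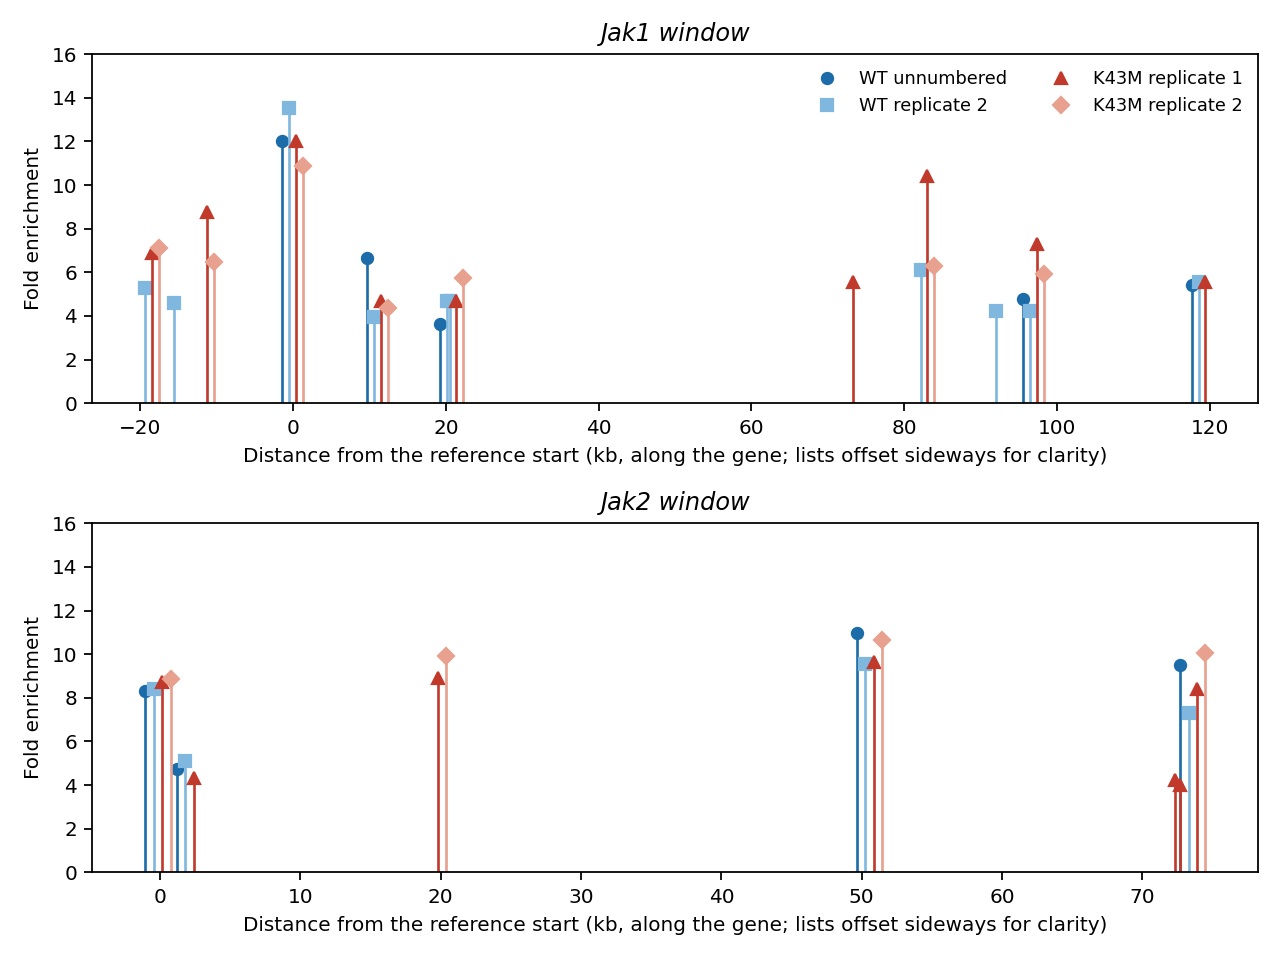
Fold enrichment (vertical axis, linear) of every region in the windows of Jak1 (top) and Jak2 (bottom) against the distance from the reference start (horizontal axis, kb), with 1 stem per list that called a peak; WT lists are blue and K43M lists red. The Jak2 region at 19.5 kb has stems for the K43M lists only, at 8.93 and 9.93.

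The unnumbered WT list lacked regions that the other 3 lists shared. This was the case for 8 of the 60 regions (13.3%), against 4.12% of regions near all protein-coding genes. They were the Stat4 promoter, 3 regions of Jak1, and others at Stat2, Stat5b, Stat6 and Jak3. The most enriched was 39.7 kb from the start of Stat2, in the coding sequence of its neighbour Pan2, with values of 6.49 in WT replicate 2 and of 10.5 and 10.9 in the K43M lists. In Jak1 they included a region in intron 5 at 82.6 kb, with values of 6.09, 10.4 and 6.29. It was the strongest of that gene body by the percentile of its weakest called peak (28.0), a measure that skips a list without a peak. The regions of that body open in all lists, at 96.9 kb and 11.1 kb, had weakest percentiles of 2.94 and 5.71. A further 4 of the 60 regions were missing from K43M replicate 2 alone, a pattern seen in 3.52% of regions near all protein-coding genes. Among them was the only region of the Stat3 body outside promoters, at 7.77 kb in intron 1. Its values were 5.67 and 6.75 in WT and 7.33 in K43M replicate 1. Of the 60 regions, 34 had a peak in the unnumbered WT list and 48 in WT replicate 2, and K43M replicates 1 and 2 held 50 and 42, or 56.7%, 80.0%, 83.3% and 70.0%. Over all regions near protein-coding genes these shares were 63.5%, 65.3%, 76.3% and 67.8%. The lines of 1 genotype thus differed by more in the WT group than the genotypes did.

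The number of peaks in the windows differed in the same way. There were 37 and 52 peaks in the WT lists and 52 and 45 in the K43M lists, so that the groups overlapped. The means were 44.5 ± 10.6 and 48.5 ± 4.95 (SD, n = 2 each), and the difference of 4 peaks gave p = 1 in a two-sided exact permutation test, in which 0.333 is the smallest p that 2 lines per group allow. As a share of all peaks, the windows held 0.112% and 0.152% in WT and 0.133% and 0.129% in K43M lists.

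The 27 shared regions, those called in every list, allowed a test of the level. Fold enrichment was put on the log2 scale, each list was centred on its median, and limma was fitted over all 21012 shared regions of the genome. The median difference over the 27 regions, K43M minus WT, was 0.05, against 0.00 (0.00145) over all shared regions, with a range from -0.38 to 0.55 and a median SE of 0.19. This median changed sign with the lines used, being 0.13 without the unnumbered WT list, 0.01 without K43M replicate 1, -0.02 without WT replicate 2 and -0.03 without K43M replicate 2. Of these regions, 16 were higher and 11 lower in K43M lines. Both K43M lines were above both WT lines in 6 regions (22.2%, against 21.2% of all shared regions), and both were below in 5 (18.5%, against 20.5%).

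None of the 27 regions passed the limma test at an adjusted p of 0.05, the lowest adjusted p being 0.299. Over the genome, 0.0619% of shared regions were called higher and 0.0476% lower in K43M lines. Only 1 of the 27 (3.70%) had an unadjusted p under 0.05, against 12.2% of all shared regions. With the read pileup recovered from the peak lists in place of fold enrichment, 1 of the 27 (3.70%) was called, higher in K43M lines, against 2.29% of all shared regions called higher and 1.93% called lower by this measure. It was the promoter of Nab2 and Nemp1 in the Stat6 window (chr10:127666505-127668679), where the highest pileups were 44 and 24 reads in WT and 69 and 63 in K43M lines (log2 difference 1.13, SE 0.23, limma adjusted p = 0.00977). The fold enrichments at this promoter were 6.45 and 5.71 in WT and 6.74 and 5.66 in K43M lines, a log2 difference of 0.03 (SE 0.20).

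The largest difference in fold enrichment was in intron 11 of Jak1, at 96.9 kb (chr4:101168169-101168576). The values were 4.77 and 4.22 in WT and 7.29 and 5.91 in K43M lines, and the pileups were 10, 8, 20 and 14 reads in the same order. Both K43M lines were higher, with a log2 difference of 0.55 (SE 0.21, limma adjusted p = 0.299). The lowest values of the difference, both -0.38, were in the second intron of Stat4 at 24.3 kb (chr1:52011163-52011637) and at the promoter of Unc13a before Jak3 at -4.52 kb. The Stat4 region had values of 9.02 and 9.51 in WT and of 8.30 and 6.10 in K43M lines, with an SE of 0.18 and an adjusted p of 0.441 by limma. Unlike the Stat4 promoter, this region was open in every list.

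Other internal regions open in all lists were the strongest of their gene body. In Jak2 a region at 50.5 kb in intron 21 had values of 11.0 and 9.54 in WT and of 9.66 and 10.6 in K43M lines. These fold enrichments were above those at the Jak2 promoter, but the pileups were below. They were 30 and 28 reads in WT and 22 and 26 in K43M lines, against 57, 47, 56 and 52 at the promoter. In Stat5b a region at 7.33 kb in intron 1 had values of 10.3 and 7.08 in WT and of 8.06 and 9.87 in K43M lines. Its pileups were 24 and 15 reads in WT and 33 and 43 in K43M lines, with a log2 difference of 1.10 (SE 0.31, limma adjusted p = 0.0544) against 0.06 (SE 0.21) for fold enrichment. The groups overlapped in fold enrichment and were apart in pileup.

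**Figure D4:**
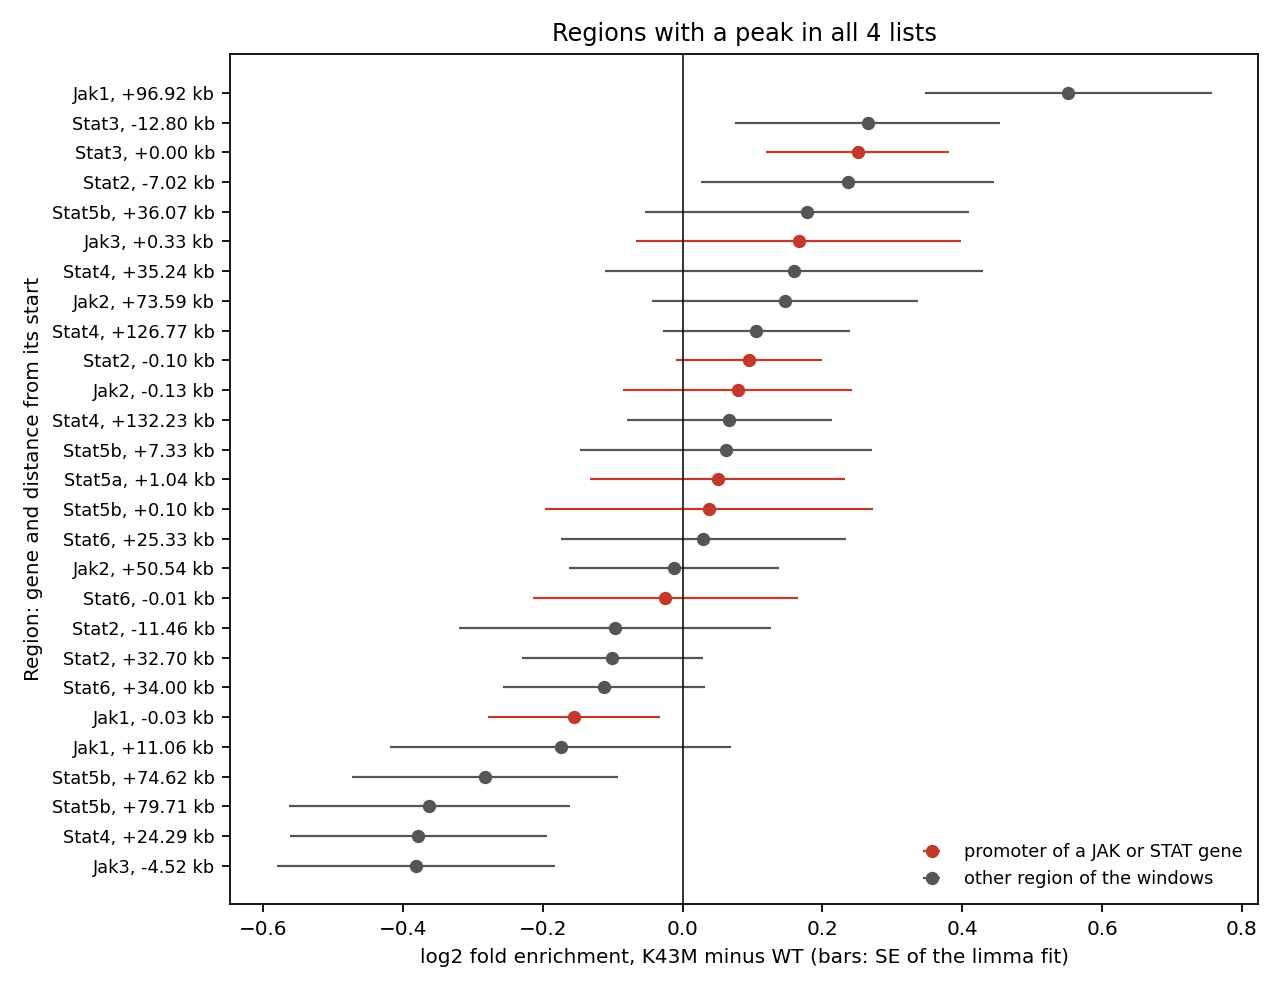
Difference in log2 fold enrichment between K43M and WT lines (horizontal axis; points are limma estimates and bars 1 SE) for the 27 shared regions, named by gene and distance from its start and ordered by the estimate; promoters of JAK and STAT genes are red. The estimates run from -0.38 to 0.55, and the 8 promoters from -0.16 to 0.25.

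Among the 8 promoters, 6 were higher in K43M lines by a log2 difference of up to 0.25. Stat2, Stat3 and Jak2 had both K43M lines above both WT lines, a pattern seen in 21.2% of all shared regions. With 8 promoters, no difference from that share was tested. The lowest adjusted p of a promoter was that of Stat3 given above.

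The receptors, regulators and known targets of the pathway were read by the same promoter rule. Of 31 receptor genes, 17 were open in all lists, 2 in both K43M lists only, 0 in both WT lists only, 4 in other sets of lists and 8 in none. Il7r, which encodes the interleukin-7 receptor, was open in all lists with 9.13 and 7.18 in WT and 9.52 and 6.49 in K43M lines. The common gamma chain gene Il2rg was also open in all lists, with 8.80 and 8.87 in WT and 9.06 and 10.4 in K43M lines. The receptors open in K43M lines only were Il6st, the shared signalling chain of interleukin-6 type cytokines, with values of 10.1 and 8.28, and Il12rb2, a chain of the interleukin-12 receptor, with 7.61 and 4.76. Those with no promoter peak included Il2rb, Csf3r, Il9r, Epor, Osmr, Prlr and Lepr, most of them receptors of other lineages. Of 22 regulators, among them the SOCS inhibitors and phosphatases, 21 were open in all lists, and Sh2b2 only in K43M replicate 1. All 15 known targets, such as Pim1, Bcl2l1 and Myc, were open in all lists. Over the 68 genes together, 53 (77.9%) were open in all lists, and 2 in K43M lists only, against the shares of 47.6% and 2.00% of protein-coding genes given above.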

How the data were processed

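ATAC-seq was performed in 4 mouse lines transformed by BCR-ABL(p185), 2 per Cdk6 genotype. The authors trimmed reads with Trimmomatic 0.36, aligned them to mm10 with bwa-mem 0.7.15, removed blacklisted regions, multimapping and low-quality reads (SAMtools 1.3.1) and called peaks per line with MACS2 2.1.0 (shift -100, extension 200). The deposited narrowPeak lists give a fold enrichment (ratio) over background and −log10 p-values and q-values (used to rank or filter peaks) per peak. Total read depth is not in the lists. The expected genome-wide background was 0.968 to 1.31 reads, and pileups were recovered for 100% of peaks (tolerance 0.005 in −log10 p). Background reads on the chromosomes of the 9 genes differed between genotypes by log2 -0.04 to 0.11.

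Peaks sharing 1 bp were merged. A list's value in a region is its most enriched peak, and its pileup the highest. Taking the highest pileup, and the most upstream principal start as the origin of distances, were choices made after seeing the data; pileup was first read at the most enriched peak. Transcripts came from GENCODE M21 (the study used M13). Genes named were the 9 genes, their promoter regions, regions of 1 genotype, called regions and the strongest internal regions, pathway genes open in 1 genotype or in none, and nearest promoter profiles. The test was limma 3.58.1 (R 4.3.3) on log2 fold enrichment with trend and Benjamini-Hochberg adjustment, checked on simulated data. Alternatives were stronger or equal numbers of peaks, overlap, flank, promoter window, scaling, pileup and leaving out each list. The pathway gene Lnk (a second name of Sh2b3) and the T cell marker Trbc1 did not match. The members and gene lists were chosen with earlier results of these data known. Sequence is from the NCBI GRCm38 assembly.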

Additional observations from a re-analysis of the deposited data

How the results depend on the processing

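Of 67 recomputed values, 12 counts moved by more than 1.5 times. The difference in peaks per list changed sign in 1 of 8 alternatives. The median log2 difference of the shared regions changed sign in 2 of 12, with a range from -0.03 to 0.13 over the lists left out. Each shift was under 1 SD between the WT lists (0.09) and over 1 SD between the K43M lists (0.02). With peaks of −log10 q of at least 5, 0 regions were open in WT lists only and 6 in K43M lists only. A flank of 5 kb left 17 shared regions and 1 in K43M lists only, and a flank of 50 kb gave 43 shared regions; fewer or more regions enter by construction. With the recovered pileup, 1 shared region was called by limma. Leaving out 1 list moved the count of regions in WT lists only to 1 to 6 (without the unnumbered WT list 6, without K43M replicate 1 6, without K43M replicate 2 2) and that in K43M lists only to 3 to 11 (without WT replicate 2 11, without K43M replicate 1 5, without K43M replicate 2 9), since 1 list then stands for a genotype. The difference in peaks per list ran from -3.5, without the unnumbered WT list, to 11.5, without WT replicate 2, and was 0.5 without K43M replicate 1, 7.5 without K43M replicate 2, 1.5 with equal numbers of peaks, 8.5 with strong peaks, and 1 and 6 with flanks of 5 and 50 kb. Over the genome, limma called 23 shared regions, 887 (482 higher, 405 lower) with pileup, 39 with strong peaks, 10 with quantile normalization, 0 without centring, and 370, 449, 0 and 0 without the unnumbered WT list, WT replicate 2, K43M replicate 1 and K43M replicate 2; the cause was not tested. None of these fits on fold enrichment called a shared region of the JAK and STAT windows. A region without a peak in a list has no value there. No paired analysis was made, since the labels do not say that lines with the same number form pairs. One WT list also carries no replicate number, so that the labelled lists of the groups share only number 2.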
